A study of Rattus norvegicus with 4 samples.

Results

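The rat major histocompatibility complex (MHC), called RT1, and the genes that load its molecules with peptide were followed in the left ventricle. Members were the genes whose symbol starts with RT1-, together with Tap1, Tap2, B2m, Ciita, Erap1, Calr, Pdia3 and the symbols that start with Tapbp. Nlrc5, which the same definition names, was not analysed here. There were 54 gene symbols at 46 loci, out of 22861 loci in the expression table, and 45 of the symbols began with RT1-. Where 1 locus carried several symbols it was counted once, and where a gene had several loci the one with the highest mean level was taken.

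All rats were male Sprague Dawley and had 5/6 nephrectomy, an excision that leaves a small remnant of kidney, when they were 10 weeks old and on 0.4% Dyets chow. They received a locked nucleic acid, a chemically hardened strand made to bind a given small RNA, by the jugular vein at 1 mg/kg, in 3 daily doses at week 1 and again at week 4 after surgery. The anti-miR-21 rats were given the strand against miR-21-5p and the anti-scr rats a scrambled strand, and ventricles were taken at week 7. Each group had 2 libraries of total RNA, each a pool of 2 to 3 rats. Both groups were nephrectomised, so neither is a healthy heart, and the inhibitor labels were not checked against any transcript here.

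MHC class I molecules sit on nearly all nucleated cells and show peptides from inside the cell to CD8 T cells and natural killer cells. Each is a heavy chain bound to beta-2 microglobulin (B2m), filled with peptide in the endoplasmic reticulum. MHC class II molecules pair an alpha with a beta chain, mostly on dendritic cells, macrophages and B cells, and show ingested peptides to CD4 T cells. In the rat, RT1-A genes encode the classical class I heavy chains, RT1-C/E, RT1-M, RT1-N, RT1-S and RT1-T genes encode mainly nonclassical ones, and the class II pairs are RT1-B (RT1-Ba with RT1-Bb) and RT1-D (RT1-Da with RT1-Db1).

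The promoters of the 4 class II chains measured above 1 FPKM are shown because the results turn on how these chains compare with one another. FPKM is fragments scaled by transcript length and by mapped fragments. The sequences are from RefSeq on GRCr8, printed 5′ to 3′ on the strand of the gene. Capitals mark GCAACNG (a core of the X1 box, read by the RFX complex), TGACG (a core of the X2 box, read by CREB family factors) and CTGATTGG (the Y box with its flank, read by NF-Y). RT1-Ba lies at chr20:4576951-4577030 on the plus strand, RT1-Bb at chr20:4604163-4604242 on the minus strand, RT1-Da at chr20:4515303-4515382 on the plus strand and RT1-Db1 at chr20:4560226-4560305 on the minus strand.
RT1-Ba: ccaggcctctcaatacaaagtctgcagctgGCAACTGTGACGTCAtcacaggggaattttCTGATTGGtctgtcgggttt
RT1-Bb: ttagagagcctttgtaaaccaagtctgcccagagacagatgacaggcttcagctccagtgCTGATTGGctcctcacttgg
RT1-Da: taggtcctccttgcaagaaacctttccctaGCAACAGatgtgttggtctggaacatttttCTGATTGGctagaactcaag
RT1-Db1: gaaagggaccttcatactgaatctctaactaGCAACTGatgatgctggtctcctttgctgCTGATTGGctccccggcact

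The RT1-Bb stretch holds the Y box but no match to the X1 or X2 core, while RT1-Ba has all 3 and RT1-Da and RT1-Db1 have X1 and Y. Both strands of windows of 300 bases, 250 before to 50 after the gene start, were searched, and 44 of the 54 members had such a window. GCAACNG stood in 6 of 9 class II windows, against 12.2% of all 27457 promoters, and CTGATTGG stood in 7 of 9, against 3.55%. Both motifs stood together in 111 promoters (0.404%), among them those of RT1-Ba, RT1-Da, RT1-Db1, RT1-Db2 and RT1-Ha. In these 5 the X1 core began 28 to 30 bases before the Y box on the gene's own strand, and these were the 5 promoters in the table with that order and distance. The 2 motifs GCAACNG and CTGATTGG and the distance were chosen after the sequences were read, so these counts are descriptions of the reference and not tests.

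The shorter Y core CCAAT, which the longer motif contains on the opposite strand, stood in 9 of 9 class II and 20 of 29 class I windows, against 37.7% of all promoters. TGACG was found in 1 of 9 class II and 9 of 29 class I windows, against 22.0% of all. The interferon motif GAAANNGAA was found in 4 of 6 windows of peptide loading genes, in 3 of 29 class I windows and in 0 of 9 class II windows, against 9.50% of all. A match is a run of letters, not a bound site.

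The target of the inhibitor, rno-miR-21-5p, is shown with its seed (bases 2 to 8) in capitals; it lies at chr10:71902653-71902674 on the minus strand of GRCr8.
rno-miR-21-5p: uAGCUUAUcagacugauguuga

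Libraries held 47826514 to 54952098 reads, of which 94.0% to 94.4% mapped. Cardiomyocyte markers summed to 71746 FPKM with anti-miR-21 and 91711 FPKM with anti-scr, and Myl2 alone reached 30217 and 39354 FPKM, which fits the ventricle label. Expression values are the authors' group values, 1 per locus and group, so no spread between pools can be given and whether the pools of the groups overlap cannot be seen. A fold is the level with anti-miR-21 divided by that with anti-scr, on the log2 scale. A locus is said to be called where the q-value, the p-value adjusted over the whole table, is under 0.05. In such bulk tissue, fewer cells of a type and less RNA per cell cannot be told apart.

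None of the 46 RT1 and antigen processing loci was called. Of the 25 that Cuffdiff tested, 0 had a q under 0.05 in the authors' deposited table, where 0.815% of 12876 tested loci did (0.186% higher and 0.629% lower with anti-miR-21). At an unadjusted p under 0.05 there were 5, of which 3 were higher (RT1-Ba, RT1-Bb and RT1-CE10) and 2 were lower (RT1-A1/RT1-A2 and RT1-Db1) with anti-miR-21. That is 20% of the members tested, against 9.3% of all tested loci (3.18% higher and 6.11% lower). At a q under 0.1 there were 2, RT1-Ba and RT1-Bb, where 1.31% of tested loci passed (0.342% higher and 0.971% lower). The median fold of the 25 loci was 0.11, with 16 higher and 9 lower in value and a range of -0.69 to 1.01, against a median of 0.01 over 9943 named loci. The other 21 member loci were not tested: 13 were listed at 0 in both groups and 8 had a mean under 1 FPKM, so the counts above describe the 25 tested loci and not every member.

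**Figure D1:**
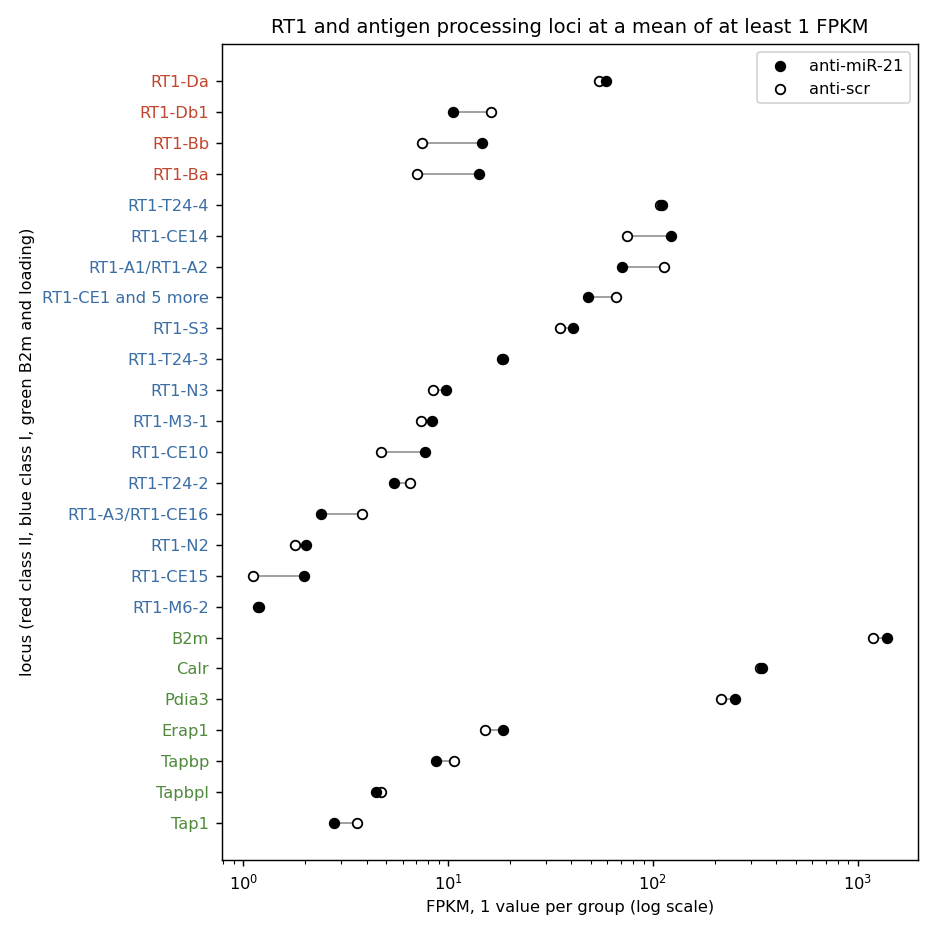
Levels of the 25 tested loci in FPKM on a log axis, with filled points for anti-miR-21, open points for anti-scr and 1 value per group. The RT1-B chains RT1-Ba and RT1-Bb lie together at 14.1 and 14.6 FPKM with anti-miR-21 and at 7.02 and 7.44 FPKM with anti-scr, while RT1-Db1 and RT1-A1/RT1-A2 lie lower with anti-miR-21.

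Among class II chains, both chains of RT1-B were higher in value with anti-miR-21, while the beta chain of RT1-D was lower and its alpha chain was close to level. RT1-Ba, the RT1-B alpha chain at chr20:6146270-6150881 on rn5, had 14.1 FPKM with anti-miR-21, against 7.02 FPKM with anti-scr, a log2 fold of 1.01. RT1-Bb, its beta chain at chr20:6123252-6129524, had 14.6 FPKM with anti-miR-21, against 7.44 FPKM with anti-scr, a log2 fold of 0.97. Thus the 2 chains of the RT1-B pair were 2.02-fold and 1.96-fold higher. In the authors' deposited table both had p = 0.00055 and q = 0.0580, which misses the threshold. The highest q that passed in that table was 0.0491, and 12 loci stood between the threshold and these 2 chains.

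RT1-Da, the RT1-D alpha chain at chr20:6207781-6212754 and the most abundant class II transcript, had 59.2 FPKM with anti-miR-21, against 54.7 FPKM with anti-scr, a log2 fold of 0.11 (q = 0.937 in the authors' deposited table). RT1-Db1, the RT1-D beta chain at chr20:6167757-6177328, had 10.6 FPKM with anti-miR-21, against 16.3 FPKM with anti-scr, a log2 fold of -0.62 (p = 0.02085 and q = 0.398 in the authors' deposited table). The ratios of the chains within each pair are given as values, since no test of them is possible with 1 value per group and neither RT1-D chain was called. On the FPKM scale RT1-Ba over RT1-Bb was 0.970 with anti-miR-21 and 0.943 with anti-scr, whereas RT1-Da over RT1-Db1 was 5.58 with anti-miR-21 and 3.36 with anti-scr. RT1-Db1 over RT1-Bb, the beta chain of one pair over that of the other, was 0.728 with anti-miR-21 and 2.19 with anti-scr. Summed over the 10 class II loci, the level was 100.4 FPKM with anti-miR-21 and 87.0 FPKM with anti-scr, a log2 fold of 0.21.

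The rest of the class II genes gave little or no signal. RT1-DOb, a chain of the molecule that restrains peptide exchange, had 0.935 FPKM with anti-miR-21 and 0.909 FPKM with anti-scr. RT1-DOa, its partner, had 0.881 FPKM with anti-miR-21 and 0.610 FPKM with anti-scr. Neither was tested in the authors' deposited table. RT1-DMa and RT1-DMb, which form the molecule that exchanges peptide on class II, were listed at 0 in both groups, as were RT1-Ha and RT1-Db2. Ciita, the transactivator that switches class II genes on, had 0.169 FPKM with anti-miR-21 and 0.168 FPKM with anti-scr and was not tested.

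The zeros of RT1-DMa, RT1-DMb, RT1-Ha and Tap2 coincide with a repeated placement in the deposited positions. Each of these genes is listed at 2 separate places on chromosome 20 with spans equal within 1 base, Tap2 for example at chr20:6075091-6089133 and at chr20:7259225-7273268, and at 0 in both groups at both. Brd2, a broadly expressed bromodomain gene with 2 placements of the same kind, was also listed at 0 at both. Over the whole table, 217 genes had 2 separate loci of equal span on 1 chromosome, and 198 of them (91.2%) were listed at 0 throughout. Without the olfactory (Olr), vomeronasal (Vom) and microRNA (Mir) symbols this was 97 of 116 genes (83.6%), against 1908 of 13952 genes with 1 locus (13.7%). These members are therefore described only as listed at 0, and no level is given for the DM molecule or for Tap2.

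The summed level of the class I heavy chains was nearly equal in the groups, while single loci differed in both directions. Of 27 class I loci, 14 were tested, 9 of these higher and 5 lower in value with anti-miR-21, with a median log2 fold of 0.11. The summed level of the 27 loci was 452 FPKM with anti-miR-21 and 453 FPKM with anti-scr. Without RT1-CE14, a choice made after its values were seen, the other 26 loci summed to 329 FPKM with anti-miR-21 and 378 FPKM with anti-scr, a log2 fold of -0.20. RT1-CE14 was higher in value with anti-miR-21, and the sum without a lower locus such as RT1-A1/RT1-A2 was not run. With every class I locus of the table included, 37 in all, the summed level was 492 FPKM with anti-miR-21 and 481 FPKM with anti-scr. That is a log2 fold of 0.03.

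The classical heavy chains were represented by the locus RT1-A1/RT1-A2, whose 2 genes share 1 value. It had 70.5 FPKM with anti-miR-21, against 113.7 FPKM with anti-scr, a log2 fold of -0.69 (p = 0.0058 and q = 0.221 in the authors' deposited table). Its interval, chr20:7395154-7500407, is given to 11 loci, and 6 others of them carry RT1-A1 or RT1-A2 with values of their own. Of those 6, RT1-A2 loci had 12.9, 4.06, 2.36 and 0.736 FPKM with anti-miR-21, against 6.85, 0, 1.54 and 3.44 FPKM with anti-scr, and RT1-A1 loci had 6.21 and 7.12 FPKM with anti-miR-21, against 3.53 and 7.98 FPKM with anti-scr. The 7 loci together summed to 103.9 FPKM with anti-miR-21 and 137.1 FPKM with anti-scr, a log2 fold of -0.40, so the difference was smaller over all copies. RT1-A3/RT1-CE16, a locus that holds a further RT1-A gene, had 2.41 FPKM with anti-miR-21, against 3.82 FPKM with anti-scr, a log2 fold of -0.67 (p = 0.0908 in the authors' deposited table).

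RT1-A1 and RT1-A2 are also close copies in their promoters, which are shown because the 2 genes share 1 deposited value. The 300-base windows were 92.4% identical over 251 aligned columns, with a shared run of 71 bases. The stretches below lie at chr20:4907102-4907239 (RT1-A1) and chr20:4872715-4872852 (RT1-A2), both on the plus strand of GRCr8, and capitals mark TGACG and the Y box on either strand.
RT1-A1: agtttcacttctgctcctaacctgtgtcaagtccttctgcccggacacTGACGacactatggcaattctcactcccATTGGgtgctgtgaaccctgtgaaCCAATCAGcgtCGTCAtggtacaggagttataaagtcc
RT1-A2: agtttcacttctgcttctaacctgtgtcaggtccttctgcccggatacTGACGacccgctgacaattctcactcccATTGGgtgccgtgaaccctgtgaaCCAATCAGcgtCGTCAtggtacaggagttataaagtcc

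Both stretches carry the same 4 marked matches in the same order. Among 406 pairs of class I windows, 8 shared a run of at least 50 bases, the longest being 95 bases between RT1-A3 and RT1-CE16. Among 36 pairs of class II windows none did, and the longest shared run was 14 bases.

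The RT1-C/E genes lay mostly in 1 interval, chr20:6714303-7038454, that 15 loci share. RT1-CE14 had 123 FPKM with anti-miR-21, against 74.6 FPKM with anti-scr, a log2 fold of 0.72 (p = 0.802 in the authors' deposited table). The locus of RT1-CE1, RT1-CE3, RT1-CE4, RT1-CE5, RT1-CE7 and RT1-CE11 had 48.2 FPKM with anti-miR-21, against 66.4 FPKM with anti-scr, a log2 fold of -0.46 (p = 0.20705 in the authors' deposited table). These neighbours differed in opposite directions, and RT1-CE6 in the same interval was listed at 0 in both groups. The sum of the 3 was 171 FPKM with anti-miR-21 and 141 FPKM with anti-scr, a log2 fold of 0.28. RT1-CE10, which lies elsewhere at chr20:131377-184288, had 7.72 FPKM with anti-miR-21, against 4.69 FPKM with anti-scr, a log2 fold of 0.72 (p = 0.01775 and q = 0.375 in the authors' deposited table). The 2 other RT1-CE10 loci had 3.06 and 1.59 FPKM with anti-miR-21, against 1.08 and 1.01 FPKM with anti-scr, so all 3 RT1-CE10 loci were higher in value. RT1-CE15 had 1.98 FPKM with anti-miR-21, against 1.12 FPKM with anti-scr, a log2 fold of 0.82 (q = 0.677 in the authors' deposited table).

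A large fold at a class I locus did not carry the same weight everywhere. Dividing the fold by the test statistic of the authors' deposited table gives a width in log2 units, used here only to compare loci. How the authors' p-values were drawn from that statistic is not given in the sources used here. The width is therefore not read as the basis of those p-values. Over 12760 tested loci at a mean of at least 1 FPKM this width had a median of 0.356 and a 95th percentile of 0.951. RT1-CE14 had a width of 4.59 and RT1-T24-2 one of 1.94, both beyond that percentile. RT1-Ba, RT1-Bb, RT1-Db1 and RT1-A1/RT1-A2 had widths of 0.407, 0.369, 0.380 and 0.305, close to the median. The fold of RT1-CE14 equals that of RT1-CE10 to 2 decimals, yet the width of RT1-CE10 was 0.434.

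**Figure D2:**
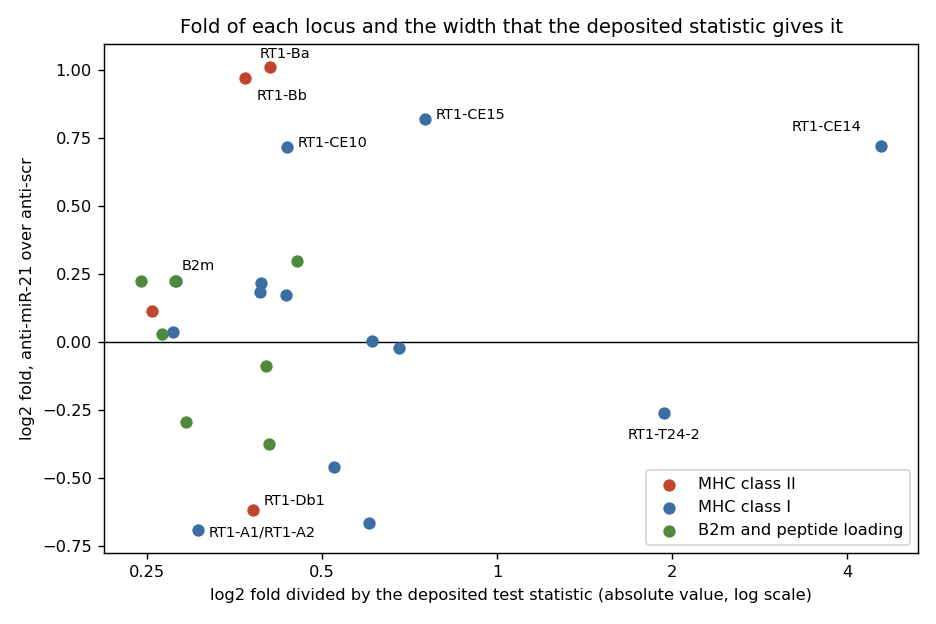
Log2 fold of anti-miR-21 over anti-scr (vertical) against the absolute fold divided by the deposited test statistic (horizontal, log scale) for the 25 tested loci, 1 point per locus. RT1-CE14 stands far to the right at 4.59 with a fold of 0.72, while RT1-Ba and RT1-Bb stand highest at widths of 0.407 and 0.369; RT1-S3 lies under B2m.

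The nonclassical class I genes of the T24, S, N and M groups differed by less than their widths. RT1-T24-4, the most abundant of them, had 111 FPKM with anti-miR-21, against 108 FPKM with anti-scr, a log2 fold of 0.04. RT1-T24-3 had 18.3 FPKM with anti-miR-21, against 18.5 FPKM with anti-scr, and RT1-T24-2 had 5.46 FPKM with anti-miR-21, against 6.55 FPKM with anti-scr. The 6 loci with T24 symbols share 1 interval and summed to 137.5 FPKM with anti-miR-21 and 136.9 FPKM with anti-scr, so the group as a whole was level. RT1-S3 had 41.0 FPKM with anti-miR-21, against 35.1 FPKM with anti-scr. RT1-N3 had 9.82 FPKM with anti-miR-21, against 8.45 FPKM with anti-scr, and RT1-N2 had 2.02 FPKM with anti-miR-21, against 1.79 FPKM with anti-scr. These 3 neighbours were slightly higher in value, with folds of 0.17 to 0.22. RT1-M3-1, whose mouse counterpart presents peptides with a formyl group, had 8.38 FPKM with anti-miR-21, against 7.37 FPKM with anti-scr. RT1-M6-2 had 1.19 FPKM in both groups; its log2 fold of 0.01 changes sign when the folds are centred on the median of all named loci.

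Beyond these, 5 class I loci had a mean under 1 FPKM: RT1-M2, RT1-T24-1, RT1-S2, RT1-O1 and RT1-M1-2. RT1-O1 and RT1-M1-2 were listed at 0 with anti-miR-21, against 0.267 and 0.0604 FPKM with anti-scr. A further 8 loci were listed at 0 in both groups, namely RT1-CE6, RT1-M4, RT1-M5, RT1-M1-4, RT1-M1-5, RT1-M10-1, RT1-T18 and the locus shared by RT1-Cl and RT1-M6-1.

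The light chain B2m and the chaperones Calr and Pdia3 had the highest levels of the members, while Tap1, Tapbp and Tapbpl were low, and none of the 7 loading loci tested had a p under 0.05. B2m, the light chain common to class I molecules, had 1386 FPKM with anti-miR-21, against 1186 FPKM with anti-scr, a log2 fold of 0.23 (p = 0.24555 and q = 0.781 in the authors' deposited table). Its level was 19.7 times that of RT1-A1/RT1-A2 with anti-miR-21 and 10.4 times with anti-scr. These ratios use 1 of the 7 RT1-A loci of that interval. The 7 together summed to 103.9 FPKM with anti-miR-21 and 137.1 FPKM with anti-scr, so the ratio to that sum differs less between groups. The RT1-A1/RT1-A2 locus, which was not called, differed in direction from B2m. Of the 14 tested class I loci, 9 were higher in value, as B2m was, and 5 were lower. The class I sum was 452 FPKM with anti-miR-21 and 453 FPKM with anti-scr. The promoter of B2m, at chr3:129549206-129549300 on the plus strand of GRCr8, is shown with TGACG and the Y core ATTGG in capitals, since B2m is the member that every class I molecule needs.
B2m: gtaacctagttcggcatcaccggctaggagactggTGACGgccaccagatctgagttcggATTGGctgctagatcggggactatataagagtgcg

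In the loading complex, chaperones were level or slightly higher in value and the peptide transporter subunit and tapasins slightly lower. Calr (calreticulin) had 342 FPKM with anti-miR-21, against 335 FPKM with anti-scr, and Pdia3, the thiol oxidoreductase that works with it, had 253 FPKM with anti-miR-21, against 216 FPKM with anti-scr. Erap1, the aminopeptidase that trims peptides to class I length, had 18.6 FPKM with anti-miR-21, against 15.2 FPKM with anti-scr. None of these folds, 0.03, 0.23 and 0.30, had a p under 0.05. Tapbp (tapasin), at a locus shared with Zbtb22, had 8.75 FPKM with anti-miR-21, against 10.7 FPKM with anti-scr. Tapbpl, a related peptide editor, had 4.44 FPKM with anti-miR-21, against 4.72 FPKM with anti-scr. Tap1, a subunit of the transporter that carries peptides into the endoplasmic reticulum, had 2.78 FPKM with anti-miR-21, against 3.60 FPKM with anti-scr, a log2 fold of -0.37. Of the 7 loading loci tested, 4 were higher and 3 lower in value, with a median fold of 0.03.

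The lower values of Tap1 and Tapbp stood beside lower values of the genes around them. Within 500 kb of an RT1 locus there were 91 named loci outside the members at a mean of at least 1 FPKM, of which 19 were higher and 72 lower in value with anti-miR-21, with a median fold of -0.37. Of 93 tested neighbours, 0 had a q under 0.05 in the authors' deposited table, while 1 was higher and 23 were lower at a p under 0.05. The neighbour that was higher was Ncr3, a natural killer cell receptor gene with 1.68 FPKM with anti-miR-21 and 0.585 FPKM with anti-scr. The 4 tested class II chains had folds of 1.01, 0.97, 0.11 and -0.62, with a median of 0.54, and the median was 0.32 over the 6 class II loci above 0 once RT1-DOa and RT1-DOb were included. Members and neighbours were not tested against each other.

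**Figure D3:**
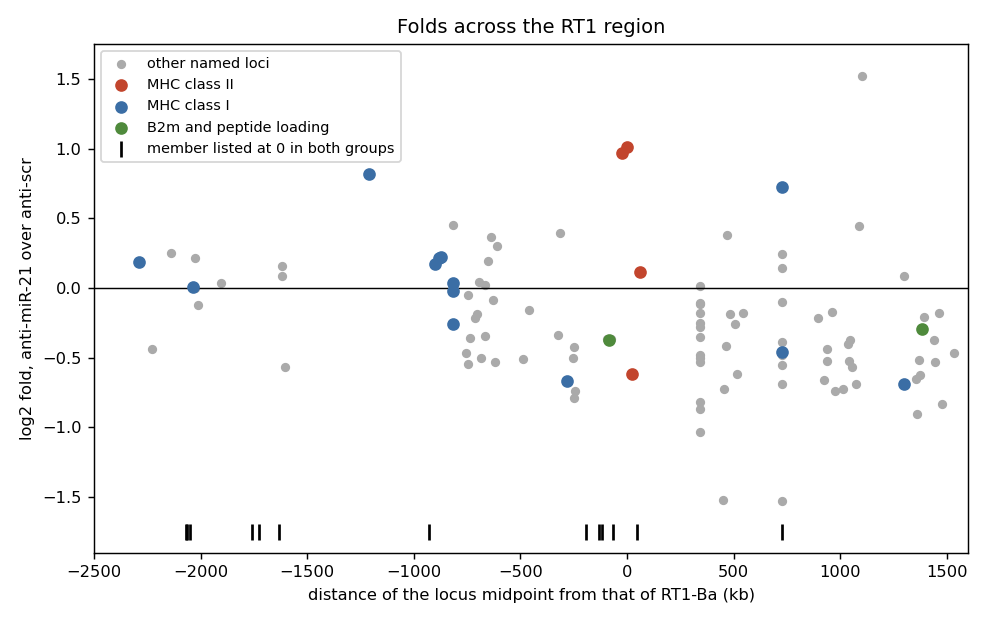
Log2 fold of anti-miR-21 over anti-scr for named loci on chromosome 20, by distance in kb from RT1-Ba, with members in colour, other named loci in grey and ticks for members listed at 0 in both groups. Most grey points lie under 0, while RT1-Ba and RT1-Bb stand at 1.01 and 0.97.

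Folds also varied with gene density over the whole table. Density counts the named loci centred within 500 kb of a locus, and it was cut into 10 classes of equal size. In the sparsest class the median fold was 0.20, and in the densest, with 31 to 70 neighbours, it was -0.27. Of the 25 members tested, 18 lay in the densest class. Set beside the median of their own class, 19 members were above and 6 below, with a median difference of 0.25. That difference was 0.81 for class II, 0.38 for class I and 0.11 for peptide loading. Tap1 and Tapbp differed from the median of their class by -0.10 and -0.02, and RT1-Ba and RT1-Bb by 1.28 and 1.24. The part of gene density in the members' folds was not tested.

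**Figure D4:**
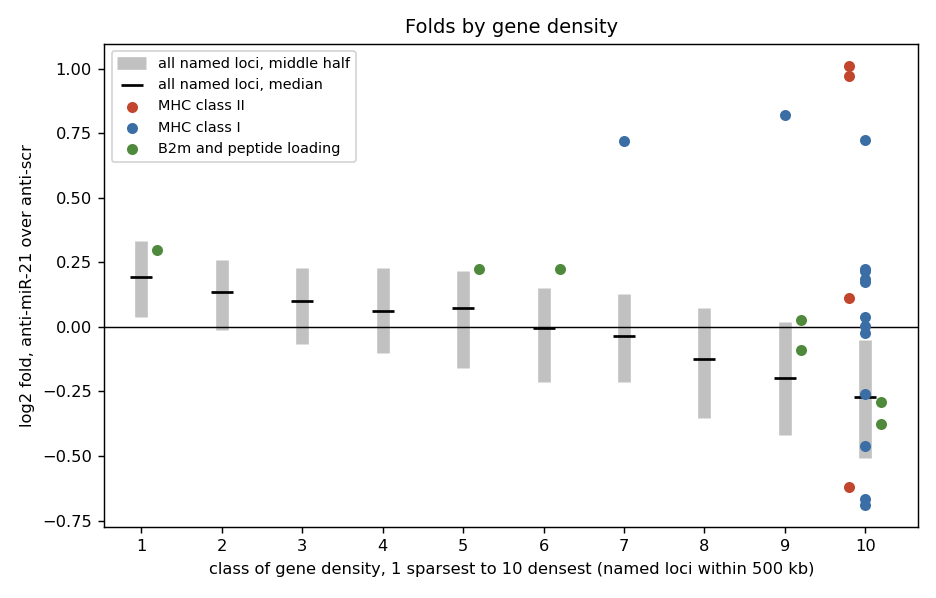
Log2 fold of anti-miR-21 over anti-scr by class of gene density, from sparsest to densest, with grey bars for the middle 50% of all named loci, black dashes for their median and coloured points for members. The median of all named loci goes down from 0.20 in class 1 to -0.27 in class 10, where 18 of the 25 members lie.

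The remaining genes of the class I route gave no call. Of 6 immunoproteasome genes tested, 1 was higher and 5 were lower in value with anti-miR-21, with a median fold of -0.30, and 1 was lower at a p under 0.05. That gene was Psmb10, a catalytic subunit, with 7.44 FPKM with anti-miR-21, against 11.6 FPKM with anti-scr (p = 0.03085 and q = 0.459 in the authors' deposited table). The activator subunits Psme1 and Psme2 had 431 and 85.3 FPKM with anti-miR-21, against 506 and 98.9 FPKM with anti-scr. Psmb8 and Psmb9, catalytic subunits encoded next to the Tap genes and named after their values were seen, had 10.7 and 10.9 FPKM with anti-miR-21, against 13.8 and 14.1 FPKM with anti-scr. Psmb9 over Tap1 was 3.93 with anti-miR-21 and 3.92 with anti-scr, so the ratio was nearly the same in both groups. Of 10 further genes of class I assembly and trimming, 7 were higher and 3 lower in value, with a median of 0.06 and none at a p under 0.05. The chaperone Hspa5 had 605 FPKM with anti-miR-21, against 511 FPKM with anti-scr, and Canx (calnexin), which holds new heavy chains, had 151 FPKM with anti-miR-21, against 121 FPKM with anti-scr.

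The class II route outside the RT1 locus did not differ in 1 direction. Of 10 genes tested, 5 were higher and 5 lower in value with anti-miR-21, with a median of 0.02, 0 at a q under 0.05, and 1 in each direction at a p under 0.05. Cd74, the invariant chain that guides class II molecules to the endosome, had 569 FPKM with anti-miR-21, against 661 FPKM with anti-scr, a log2 fold of -0.22 (q = 0.830 in the authors' deposited table). Cd74 over RT1-Da was 9.62 with anti-miR-21 and 12.1 with anti-scr. Cd74 differed in the opposite direction to RT1-Ba, RT1-Bb and RT1-Da and in the same direction as RT1-Db1. Ctsl1, a lysosomal protease, had 506 FPKM with anti-miR-21, against 484 FPKM with anti-scr. Ctsd, an aspartic protease of the lysosome, had 165 FPKM with anti-miR-21, against 223 FPKM with anti-scr (p = 0.01965 and q = 0.389 in the authors' deposited table). Ctss, the protease that frees class II of the invariant chain and a gene named after its value was seen, had 87.5 FPKM with anti-miR-21, against 65.2 FPKM with anti-scr (p = 0.03715 and q = 0.498 in the authors' deposited table).

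Among the factors that bind the promoter boxes printed above and the interferon factors, 11 were tested, 7 higher and 4 lower in value, with a median of 0.08 and 0 at a q under 0.05. Rfxank, a subunit of the RFX complex, had 3.67 FPKM with anti-miR-21, against 8.02 FPKM with anti-scr, a log2 fold of -1.13 (p = 0.0153 and q = 0.349 in the authors' deposited table). It was the gene of that list at a p under 0.05. Its direction was opposite to that of RT1-Ba and RT1-Bb and the same as that of RT1-Db1 (-0.62). A link between these values was not tested. Nfyc, a subunit of NF-Y, had 54.8 FPKM with anti-miR-21, against 61.5 FPKM with anti-scr. Of 4 tested genes of interferon gamma signalling, 3 were higher and 1 lower in value, with a median of 0.14 and none at a p under 0.05. The receptor chain Ifngr1 had 65.3 FPKM with anti-miR-21, against 61.7 FPKM with anti-scr. The kinases Jak1 and Jak2 had 48.3 and 8.22 FPKM with anti-miR-21, against 42.1 and 6.76 FPKM with anti-scr. Ifng itself had 0.166 FPKM with anti-miR-21 and 0.148 FPKM with anti-scr.

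Markers of the cells that carry MHC molecules, and of cardiomyocytes, are given beside these results. Of 7 cardiomyocyte markers tested, 6 were lower and 1 was higher in value with anti-miR-21, with a median fold of -0.38, and 3 were lower at a p under 0.05. Myl3, a ventricular myosin light chain, fell and was the gene called among all the pathway and marker lists, with 2999.8 FPKM with anti-miR-21, against 5253 FPKM with anti-scr, a log2 fold of -0.81 (q = 0.0131 in the authors' deposited table). Macrophage markers summed to 494 FPKM with anti-miR-21 and 381 FPKM with anti-scr over 13 of 14 list symbols, with a median fold of 0.27, 11 higher and 2 lower in value, 2 higher at a p under 0.05 and none listed at 0. Dendritic cell markers summed to 89.6 FPKM with anti-miR-21 and 84.7 FPKM with anti-scr over 8 of 9. Most of it was at a locus that Xcr1 shares with Fyco1, and 4 of the 8 had a mean under 1 FPKM. B cell markers summed to 0.647 FPKM with anti-miR-21 and 0.438 FPKM with anti-scr over 3 of 5. All 3 had a mean under 1 FPKM and none was tested. Within the macrophage sum, Lyz2 alone had 251 FPKM with anti-miR-21 and 165 FPKM with anti-scr. The macrophage sum differed in the direction of RT1-Ba and RT1-Bb and opposite to RT1-Db1. The dendritic cell, B cell, T cell, endothelial and fibroblast sums were higher in value too. The natural killer cell and cardiomyocyte sums were lower. Among markers at a mean of at least 1 FPKM, 2 endothelial markers were higher and 4 lower, with a median fold of -0.04. Dendritic cell markers were 2 higher and 2 lower (median 0.02), and T cell markers 3 and 1 (0.05). Fibroblast markers were 5 higher and 0 lower (0.24), and natural killer cell markers 1 and 2 (-0.50). T cell markers summed to 8.07 FPKM with anti-miR-21 and 7.88 FPKM with anti-scr over 7 of 7, and natural killer cell markers to 9.25 FPKM with anti-miR-21 and 12.4 FPKM with anti-scr over 6 of 6. Endothelial markers summed to 357 FPKM with anti-miR-21 and 349 FPKM with anti-scr over 6 of 7, and fibroblast markers to 1663 FPKM with anti-miR-21 and 1363 FPKM with anti-scr over 6 of 6. No marker of these lists was listed at 0 in both groups. Col1a2 was listed at 0 with anti-miR-21 and at 0.0123 FPKM with anti-scr and was not tested. It has 2 placements of equal span, as Tap2 does, so no level is read from it and it adds next to nothing to the fibroblast sum. The part of these cells in the RT1 values was not tested.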

How the data were processed

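Left ventricle RNA was measured in 2 anti-miR-21 and 2 anti-scr libraries, each a pool of rats, so the deposited p-values measure at most the spread between pools. The library kit was stranded and for total RNA, and reads were paired, per the labels' protocols. The build was rn5, and TopHat2 2.0.10, cutadapt, Cuffdiff and Cufflinks 2.0.10 are named in the submitters' processing notes; the annotation is not given in the sources used here. The reference genome is that of a Brown Norway rat and these rats are Sprague Dawley, whose RT1 alleles may differ from it. RT1 alleles may also differ between the pools of the groups, which cannot be told apart from the treatment here. Neither effect on the values was tested.

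The authors deposited FPKM as 1 value per locus and group, and per locus a log2 fold, a test statistic, a q-value and a p-value. A second deposited table gives the read count of each library and the percent mapped. In 97 loci with several gene names the deposited cells stood shifted and were realigned. Folds were recomputed from FPKM; for all 25 tested members they matched the deposited log2 fold within 0.002. The way Cufflinks splits reads of near-identical genes affects FPKM, and a listed 0 can be a failed estimate.

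Tables were computed with Python 3.11.15, NumPy 2.4.6, pandas 2.3.3 and SciPy 1.17.1, and figures with matplotlib 3.10.9. The realignment of shifted rows and the adjustment of p-values were tested on simulated data, and the other steps were not. All members at a mean of at least 1 FPKM are named. Of each pathway list without members, the called loci are named, otherwise the 2 most abundant genes and the one with the largest fold at that mean; genes outside the rule are marked, and a few items are not reported here. The members, lists and rules were chosen with earlier results of these data known. The first RefSeq promoter window listed for a gene was used. A planned comparison of protein sequences was not run, because none was used here. Model fits per library, the replicate block and leaving out a library need values per library and were not run. Other thresholds, filters, pseudocounts, centring, windows and locus choices were tried as alternatives.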

Additional observations from a re-analysis of the deposited data

How the results depend on the processing

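No paired analysis was possible because the expression values are 1 per group, with no column per library; leaving out a library was not run for the same reason. The count of called members, 0 at a q under 0.05, was 2 at a q under 0.1 and 5 at an unadjusted p under 0.05. It remained 0 at a q under 0.01, with a fold minimum of 0.5, and with q recomputed over 12773 tested loci at a mean of at least 1 FPKM, where RT1-Ba and RT1-Bb had a q of 0.0590.

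No median below changed sign. The median fold of the members, 0.11, was 0.0405 with a minimum of 0.1 FPKM and with no filter, 0.18 with a minimum of 5 FPKM or without loci of several symbols, 0.10 when centred on all named loci and 0.10 as a mean. The class I median, 0.11, was 0.0752 on log2(FPKM + 1), 0.10 on log2(FPKM + 0.1), 0.0375 with a minimum of 0.1 FPKM or none, 0.10 with loci summed, 0.0913 centred, 0.18 without loci of several symbols and 0.0717 as a mean. The class II median, 0.54, was 0.50 on log2(FPKM + 1), 0.32 with a minimum of 0.1 FPKM or none, 0.53 centred and 0.37 as a mean. The loading median, 0.03, was 0.23 with a minimum of 5 FPKM, 0.0149 centred, 0.13 without loci of several symbols and 0.0029 as a mean. The median of the RT1 neighbours, -0.37, was -0.36 within 200 kb and -0.36 within 1000 kb. The median difference of members from their density class, 0.25, was 0.29 with 250 kb on either side. Filters change which loci enter; for the other shifts the cause was not tested. Among single members, the fold of each of the 25 moved by less than its width under every alternative run, and RT1-M6-2 changed sign when centred.

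The log2 fold of the class I sum, -0.0026, was -0.20 without RT1-CE14, an alternative chosen after seeing the data. The sum without a lower locus such as RT1-A1/RT1-A2 was not run.

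With 1 value per group and pools of rats, differences between rats cannot be seen, and the members with a mean under 1 FPKM had no test.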

Other observations

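MHC-like molecules outside the RT1 symbols differed in direction between genes. Of 4 tested, 2 were higher and 2 lower in value with anti-miR-21, with a median fold of -0.09 and 0 at a q under 0.05. Fcgrt, the heavy chain of the neonatal Fc receptor, which also binds B2m, had 22.7 FPKM with anti-miR-21, against 30.4 FPKM with anti-scr (p = 0.04825 and q = 0.532 in the authors' deposited table). Cd1d1, which presents lipids, had 19.9 FPKM with anti-miR-21, against 26.8 FPKM with anti-scr (p = 0.0513 in the authors' deposited table). Hfe, an iron regulator of the same fold that also binds B2m, had 2.99 FPKM with anti-miR-21, against 1.90 FPKM with anti-scr (p = 0.10665 in the authors' deposited table).

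Of 9 tested genes for receptors of T, natural killer and myeloid cells, 1 was higher and 1 lower at a p under 0.05, and 0 had a q under 0.05; over the 10 at a mean of at least 1 FPKM the median fold was 0.17. Lilrb4, an inhibitory receptor of myeloid cells, had 9.57 FPKM with anti-miR-21, against 5.23 FPKM with anti-scr, a log2 fold of 0.87 (p = 0.00165 and q = 0.112 in the authors' deposited table). Klrb1a, a natural killer cell receptor, had 1.07 FPKM with anti-miR-21, against 3.06 FPKM with anti-scr, a log2 fold of -1.51 (p = 0.00875 and q = 0.268 in the authors' deposited table). Cd4, the coreceptor that binds class II and that rat macrophages also carry, had 22.1 FPKM with anti-miR-21, against 18.0 FPKM with anti-scr. The 4 costimulation genes tested were all higher in value with a median fold of 0.17, and none had a p under 0.05. Cd274 (PD-L1) had 7.29 FPKM with anti-miR-21, against 6.66 FPKM with anti-scr, Cd86 had 3.00 FPKM with anti-miR-21, against 2.61 FPKM with anti-scr, and Cd28 had 2.94 FPKM with anti-miR-21, against 2.08 FPKM with anti-scr (p = 0.06455 in the authors' deposited table).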
